A study of Mus musculus with 2 samples.

Results

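Pericytes and other mural cells made up 117 of 15853 cells kept from 2 single-cell RNA libraries of mouse tumours. There were 23 among 8033 cells of the Myct1 KO library and 94 among 7820 cells of the WT library. Cells were kept with at least 500 detected genes and at most 10% mitochondrial UMIs, where a UMI (unique molecular identifier) stands for 1 captured mRNA molecule. A kept cell was taken as mural when Rgs5, Notch3, Kcnj8 and Abcc9 together reached at least 10 UMIs per 10000 and at least 2 of these 4 genes were detected. In addition, Cdh5, Egfl7, Esam, Emcn, Plvap and Cd93, all expressed by endothelial cells, had to sum to under 20 per 10000, and the keratins Krt8 and Krt18 to at most 4 per 10000. The members were thus selected on the measured values of these 12 genes, which are given only as a description.

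The Myct1 KO library came from C57BL/6 mice of the genotype Cdh5-cre Myct1 fl/fl (the sample label writes Cdh-cre), and the WT library from C57BL/6 mice with the label WT. Cdh5-cre expresses Cre recombinase from the promoter of VE-cadherin, an endothelial gene, so the floxed Myct1 allele is meant to be lost from endothelial cells and not from mural cells. The tumours of 4 mice went into 1 pool per library, were dissociated with enzymes (collagenase, dispase and a DNase) and the cells were captured with a 10x Chromium 3′ kit. The labels name both samples as endothelial and give neither the tumour model nor age. With 1 library per genotype there is no replicate check and no test, genotype and library cannot be told apart, and every 95% interval below covers counting error only.

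Mural cells wrap the endothelial tube. Pericytes sit within the basement membrane of capillaries and venules, and smooth muscle cells ring arterioles and arteries, with intermediate forms between them. Endothelial cells secrete PDGF-B, which binds the receptor Pdgfrb on mural cells and keeps them at the vessel, and endothelial Notch ligands act on Notch3 to maintain mural identity. Kcnj8 and Abcc9 encode the pore and the regulatory subunit of a potassium channel gated by ATP, which hyperpolarises pericytes, and Rgs5 restrains signalling of G protein-coupled receptors.

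Over all barcodes the libraries held 145331950 UMIs (median 12921 per barcode) for Myct1 KO and 115519153 (median 8725.5) for WT. Keratin positive cells, counted by Krt8 and Krt18, were 81.6% of kept Myct1 KO cells and 46.2% of kept WT cells. Fibroblasts, counted by Dcn, Lum and Pdgfra, were 1.12% of Myct1 KO cells and 34.5% of WT cells. Endothelial cells numbered 302 in Myct1 KO and 573 in WT. Of all barcode sequences 218 occurred in both libraries, none of them among mural cells.

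Myct1 itself, the targeted gene, is not among the 9664 genes of the Myct1 KO table, which lists genes that reach at least 4 UMIs in some barcode. WT endothelial cells held 225 CPM (UMIs per 1000000 UMIs of the class), with a UMI in 72.4% of cells. The 94 WT mural cells held 0 Myct1 UMIs of 644609, which allows up to 4.65 CPM.

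Mural cells were shallow and unequal in depth. Myct1 KO mural cells had 2044, 5117 and 46051 UMIs as lowest, median and highest, and WT mural cells 962, 5130.5 and 26918. The deepest barcode supplied 22.0% of the Myct1 KO sum of 209524 UMIs and 4.18% of the WT sum. Keratin UMIs fell in 6 Myct1 KO cells, which carried 56.2% of that sum, and in 7 WT cells, which carried 15.9%. The gene lists and most named genes below are therefore compared between genotypes with all members and again with the 17 Myct1 KO and 87 WT mural cells that had no keratin UMI. The highest doublet score was 0.201 in Myct1 KO mural cells and 0.461 in WT mural cells, on a scale to 1.

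The rule required joint detection among its 4 genes, so how often they were found together is given only as a description. All 4 were detected in 11 of 23 Myct1 KO cells and in 64 of 94 WT cells. Their sum per 10000 UMIs had a lowest value of 13.9, a median of 54.5 and a highest value of 176 in Myct1 KO cells, and 14.6, 112 and 322 in WT cells. The cells nearest the limit of 10 were taken among those that met the other conditions of the rule. The 3 Myct1 KO cells just above this limit had 13.9, 15.04 and 15.7, while the 3 just below it had 1.23, 1.07 and 0.962. Cells that failed another condition are left out, so this gap cannot show that the limit separates cell types. The 3 WT cells just above had 14.6, 15.3 and 19.0, and the 3 just below 9.94, 8.85 and 8.29. Rgs5 alone gave 5.28, 34.2 and 135 per 10000 in Myct1 KO cells, all of which held it, and 0, 78.9 and 239 in WT cells, of which 93 held it.

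Markers outside the rule were those of mural cells. Pdgfrb, the PDGF-B receptor, was detected in 21 of 23 Myct1 KO and in 94 of 94 WT mural cells, at a median depth of 5117 and 5130.5 UMIs. Among keratin positive cells, which should lack it, a Pdgfrb UMI was found in 12.5% of Myct1 KO and 10.5% of WT cells, at 16687 and 15669 UMIs. Higd1b, a mitochondrial protein that marks pericytes, was detected in 21 Myct1 KO and 81 WT mural cells, against 0.0763% of Myct1 KO and 0.111% of WT keratin positive cells. Among 1675 genes at 100 CPM or more in WT mural cells, 47 exceeded the highest of the endothelial, fibroblast and keratin positive classes at least 10-fold. Of these 47, the Myct1 KO table listed 42, of which 40 were again highest in mural cells, 32 at least 5-fold and 21 at least 10-fold. These counts are not all outside the rule. Rgs5, Notch3 and Kcnj8, which the rule itself set high, are among the 47, 42, 40 and 32, and Rgs5 and Notch3 among the 21. All markers come from the cells that the rule gathered, so these folds are a description.

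Genes outside the rule with large WT folds were of several kinds. Myh11, the smooth muscle myosin heavy chain, stood 30.3-fold above the next class in Myct1 KO and 196-fold in WT. Cox4i2, an oxygen-sensing subunit of cytochrome oxidase, stood 49.9-fold and 88.7-fold above it, and Des, the intermediate filament desmin, 36.3-fold and 68.6-fold. Gucy1a3 and Gucy1b3, the subunits of the nitric oxide receptor guanylate cyclase, stood 11.8-fold and 12.5-fold above the next class in Myct1 KO, and 54.9-fold and 46.2-fold in WT. H2-M9, a non-classical MHC gene, stood 13.3-fold and 86.5-fold above the next class, and Mmp9, a gelatinase, 69.0-fold and 76.4-fold, from 5 Myct1 KO and 6 WT cells. Further down the order, Rgs4, a relative of Rgs5, stood 94.8-fold above it in Myct1 KO and 38.3-fold in WT, at the near-equal levels of 258 and 268 CPM. Gja4, the gap junction protein connexin 37, was 10.7-fold and 17.6-fold above the next class. Trpc6, Synpo2, Tusc5 and Olfr558 were also among the highest folds in WT, and all but Olfr558 are not listed for Myct1 KO.

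**Figure D1:**
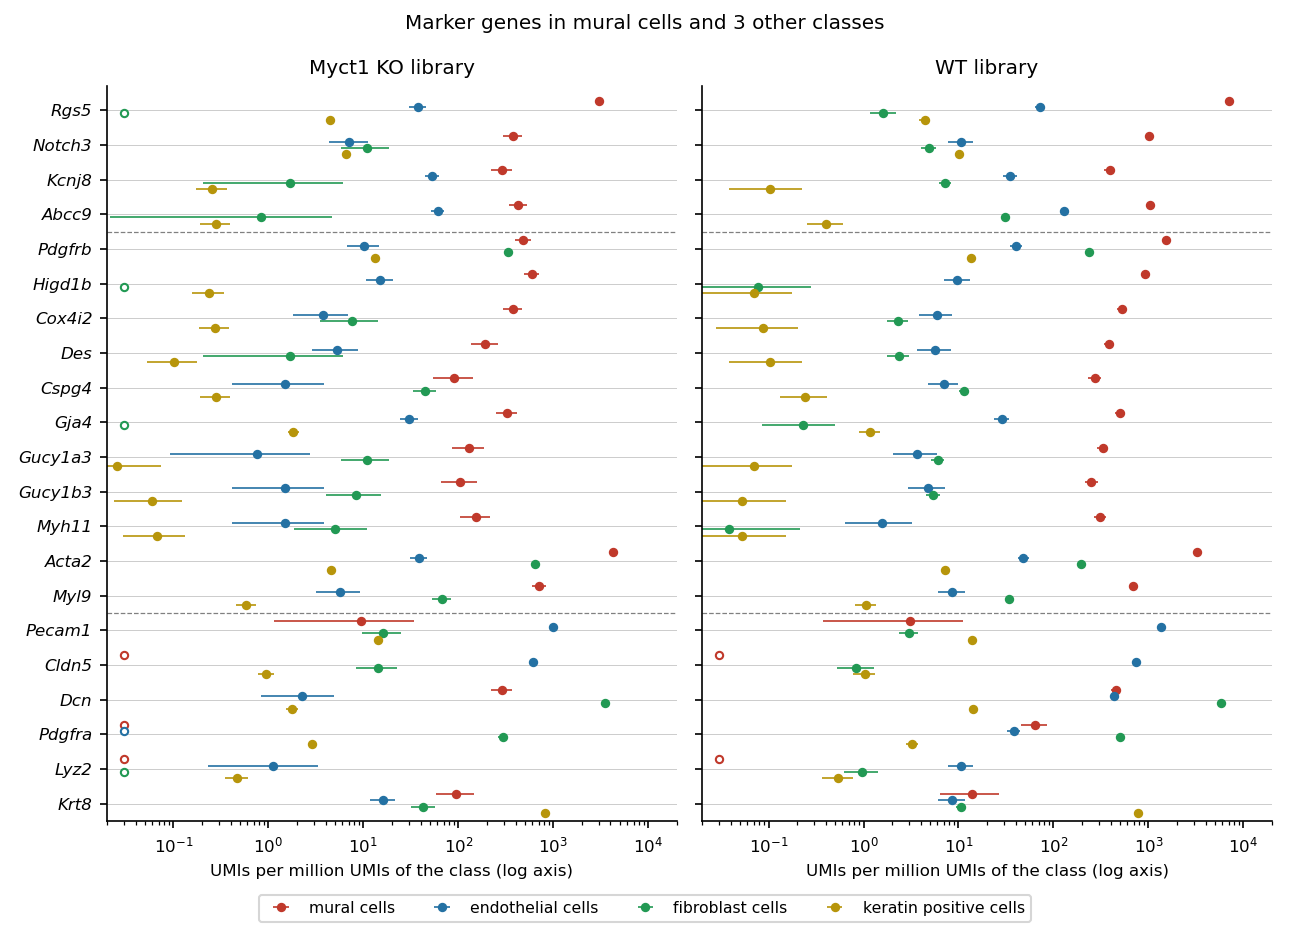
Level of marker genes in CPM (log axis) in mural, endothelial, fibroblast and keratin positive cells of the Myct1 KO library (left) and the WT library (right), with exact 95% Poisson intervals; open circles at the left edge mark 0 UMIs, and the dashed lines separate the genes of the rule, other mural genes and genes of other classes. Pdgfrb was at 482 CPM in Myct1 KO and 1539 CPM in WT mural cells, and Cldn5 was at 0 in mural cells of both.

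The endothelial genes Cldn5 and Pecam1 and the macrophage genes were at or near 0 in mural cells, while other markers were found. Of 18 endothelial markers not used in the rule, 10 had no UMI in Myct1 KO and 8 none in WT mural cells. Cldn5, a tight junction claudin, was at 0 in both, and Pecam1 had 2 UMIs in each library. Flt1, VEGF receptor 1, was the highest of the others, at 224 CPM in 16 Myct1 KO cells and 428 CPM in 56 WT cells. The endothelial list summed to 0, 5.01 and 18.9 per 10000 (lowest, median, highest) in Myct1 KO cells and to 0, 5.15 and 48.9 in WT cells, with a UMI in 22 of 23 Myct1 KO and 76 of 94 WT cells. The macrophage list summed to 19.1 CPM in Myct1 KO and 15.5 CPM in WT mural cells, with 12 of 13 listed genes at 0 in Myct1 KO, 7 of 13 in WT and Lyz2 in both. The list of epithelial and tumour genes summed to 859 CPM in Myct1 KO, with a UMI in 20 of 23 cells, and to 743 CPM in WT, with a UMI in 50 of 94. Nupr1, a stress-response gene, was its highest member in Myct1 KO and Spp1, osteopontin, in WT, and Epcam and Cdh1 were at 0 in both.

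Fibroblast markers were more frequent. Of 20 listed genes, 14 had a UMI in Myct1 KO mural cells and 20 in WT mural cells, with a sum of 6.45, 20.1 and 124 per 10000 in Myct1 KO and 4.38, 29.4 and 465 in WT. Dcn, the proteoglycan decorin, came from 3 Myct1 KO cells (286 CPM) and 15 WT cells (456 CPM), and Pdgfra was at 0 UMIs in Myct1 KO and 63.6 CPM in 5 WT cells. WT endothelial cells held Dcn at nearly the mural level, 434 CPM. Dcn, Lum and Pdgfra summed to 2.25 CPM in Myct1 KO endothelial cells and to 574 CPM in WT endothelial cells, and in keratin positive cells to 4.99 CPM in Myct1 KO and 22.97 CPM in WT. Their part in the results on collagen and fibroblast genes below was not tested.

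The cells spread along a contractile axis. The sum of Acta2, Tagln, Myl9, Tpm2, Myh11 and Cnn1, which encode smooth muscle actin and proteins that bind or move it, ranged per 10000 UMIs over 0, 29.7 and 287 in Myct1 KO cells and over 0, 30.4 and 297 in WT cells (lowest, median, highest). None of the 6 genes was detected in 2 Myct1 KO and 8 WT cells. A limit at 30.3, the median over the cells, left 11 high-index and 12 low-index cells in Myct1 KO, and 47 and 47 in WT. The 2 sets are ranges of 1 measure and not cell types, since 4 Myct1 KO and 18 WT cells lay within 1.5 times of the limit. Median depth was 5821 UMIs in high-index and 4693 in low-index Myct1 KO cells, and 5587 and 4531 in WT cells. The 2 deepest Myct1 KO cells, with 46051 and 25834 UMIs, were both low-index cells, whose UMIs summed to 119288. They held 18 and 10 keratin UMIs, and the deepest lay just under the limit, at 29.7. Levels in low-index Myct1 KO cells below therefore lean on these 2 cells, and their part in the ratios was not tested.

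Kcnj8, the pore subunit of the pericyte potassium channel, ran opposite to the contractile genes in both libraries. It was detected in 5 of 11 high-index and 11 of 12 low-index Myct1 KO cells, and in 27 of 47 high-index and 41 of 47 low-index WT cells. With every cell thinned to 2000 UMIs, which leaves out 7 shallower WT cells, Kcnj8 was found in 2 of 11 and 9 of 12 Myct1 KO cells, and in 17 of 44 and 30 of 43 WT cells. Its level was 122 CPM in high-index and 411 CPM in low-index Myct1 KO cells, a log2 ratio of -1.75 (-2.85 to -0.79), and 223 and 586 CPM in WT cells, a log2 ratio of -1.39 (-1.80 to -0.997). Spearman's rho between the contractile sum and Kcnj8 per 10000 was -0.53 over 23 Myct1 KO cells and -0.54 over 94 WT cells, which share a library and its depth range. Kcnj8 is a gene of the rule, which used none of the contractile genes, and its values remain a description.

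**Figure D2:**
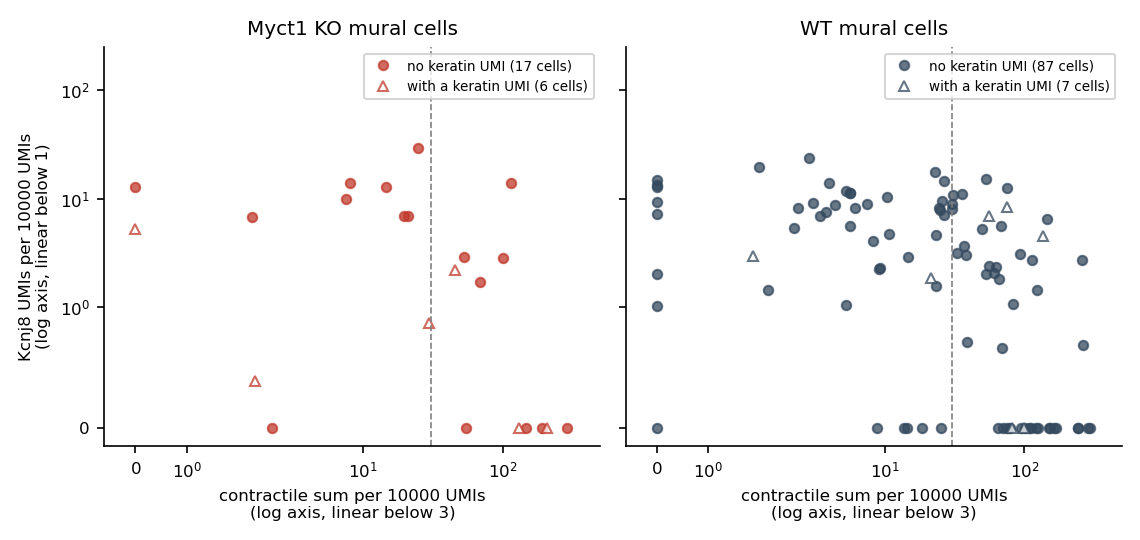
Kcnj8 UMIs per 10000 (vertical, log axis, linear below 1) against the sum of 6 contractile genes per 10000 (horizontal, log axis, linear below 3) in each Myct1 KO mural cell (left) and WT mural cell (right); triangles are cells with a keratin UMI and the dashed line is the limit of 30.3. Cells at 0 Kcnj8 lie mostly to the right of the line, with 6 of 11 high-index and 1 of 12 low-index cells in Myct1 KO.

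Abcc9, the channel's regulatory subunit, had ratios nearer to 0. It was at 332 CPM in high-index and 495 CPM in low-index Myct1 KO cells, and at 902 and 1208 CPM in WT cells, log2 ratios of -0.57 (-1.26 to 0.08) and -0.42 (-0.65 to -0.20). Its rho with the contractile sum over cells was -0.33 in Myct1 KO and -0.52 in WT, where it was close to that of Kcnj8. Kcnj8 lies at chr6:142564837-142571614 and Abcc9 at chr6:142587862-142702315, both on the minus strand and side by side in GRCm38. Both genes were found in 14 Myct1 KO cells, Kcnj8 alone in 2, Abcc9 alone in 6 and neither in 1. In WT both were found in 67 cells, Kcnj8 alone in 1, Abcc9 alone in 21 and neither in 5.

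The vasoactive list as a whole had no slope, with 1 of 13 genes higher and 1 lower in WT high-index cells and a median log2 ratio of 0.068. In WT 7 of the 13 were above 0. Adra2a, an adrenergic receptor, was at 189 CPM in high-index and 105 CPM in low-index WT cells (0.85, 0.21 to 1.51), with 2 and 4 UMIs in Myct1 KO. Genes that ran the other way follow. Ednrb, an endothelin receptor, was at 33.2 CPM in high-index and 184 CPM in low-index Myct1 KO cells (log2 ratio -2.47), and at 255 and 501 CPM in WT cells (-0.97). Gja4, a member of the pericyte list, was at 155 and 453 CPM in Myct1 KO cells (-1.54), and at 387 and 640 CPM in WT cells (-0.73). Agtr1a, the angiotensin II receptor, was at 77.3 CPM in high-index and 190 CPM in low-index WT cells (-1.29), while Myct1 KO cells held only 1 and 5 UMIs. General mural genes showed no such slope in WT: the log2 ratio was -0.08 for Rgs5, -0.10 for Pdgfrb and 0.19 for Notch3, against 0.76, 0.14 and 1.19 in Myct1 KO.

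Contractile genes outside the index followed it. In WT, 3.86% of 5006 genes with enough counts were at least 2-fold higher in high-index cells with an interval that excludes no difference, and 4.39% were lower by the same rule. Of 16 contractile genes measured outside the index, 10 were higher and 0 lower in WT, the median log2 ratio was 1.18 against -0.01 for all genes, and all 16 were above 0 in both libraries. Actg2, the gamma smooth muscle actin, was at 366 CPM in high-index and 16.8 CPM in low-index Myct1 KO cells, and at 209 and 10.2 CPM in WT cells, log2 ratios of 4.45 and 4.36. Tpm1, a tropomyosin, had log2 ratios of 2.31 in Myct1 KO and 2.07 in WT, Csrp1, a muscle LIM protein, 2.26 and 1.93, and Mylk, the myosin light chain kinase that starts contraction, 1.86 and 1.35. Flna, the actin crosslinker filamin A, differed between libraries, at 0.40 (-0.29 to 1.09) in Myct1 KO and 1.75 (1.43 to 2.09) in WT. Of the pericyte list, 2 of 25 genes were higher and 1 lower in WT high-index cells.

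**Figure D3:**
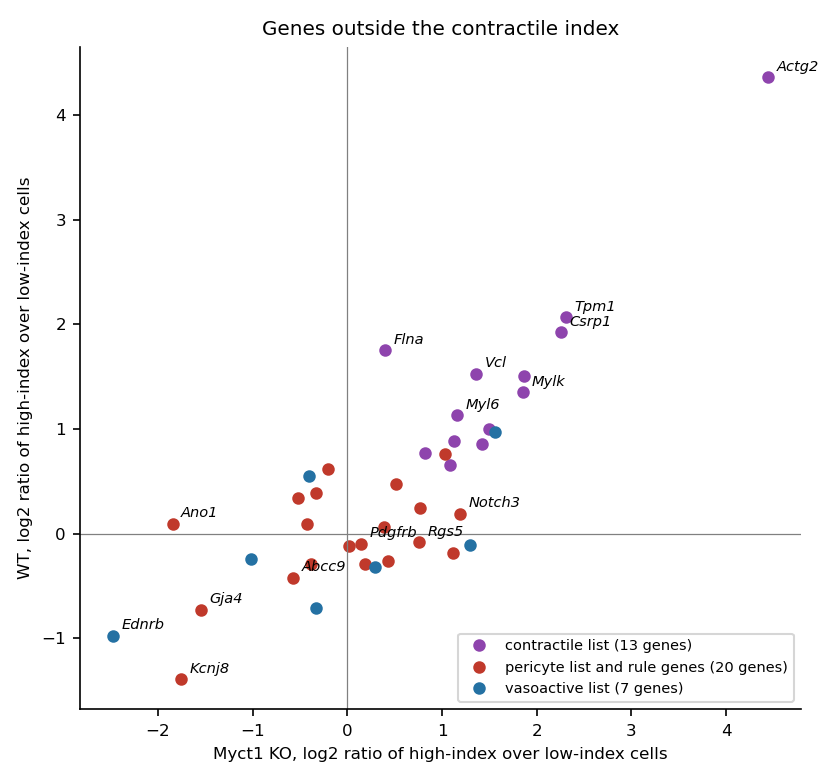
Log2 ratio of high-index over low-index mural cells in Myct1 KO (horizontal) and in WT (vertical) for 13 contractile, 20 pericyte and rule, and 7 vasoactive genes with at least 20 UMIs in each library, none of them part of the index. All 13 contractile genes are above 0 on both axes, and Kcnj8 (-1.75 in Myct1 KO and -1.39 in WT) and Ednrb lie at the lower left.

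The promoters of contractile genes are shown because smooth muscle genes are known to carry CArG boxes, the site of serum response factor. CArG boxes were searched on both strands in the 250 bases before each gene start in RefSeq windows of GRCm38.p6. They were present for 4 of 23 matched contractile genes (17.4%), for 439 of all 27025 genes (1.62%), for 75 of 4410 genes measured in mural cells (1.70%) and for 0 of 23 matched pericyte and rule genes. The 100-base stretches around the boxes, in capitals, follow 5′ to 3′ on the gene's strand. They lie at chr2:156775258-156775357 (plus strand, Myl9), chr10:128493010-128493109 (minus strand, Myl6), chr14:20929148-20929247 (plus strand, Vcl) and chr16:57549135-57549234 (plus strand, Filip1l).
Myl9: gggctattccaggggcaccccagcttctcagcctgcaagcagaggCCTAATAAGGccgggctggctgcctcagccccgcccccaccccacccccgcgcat
Myl6: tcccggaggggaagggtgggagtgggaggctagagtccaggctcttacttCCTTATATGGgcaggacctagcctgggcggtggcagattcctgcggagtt
Vcl: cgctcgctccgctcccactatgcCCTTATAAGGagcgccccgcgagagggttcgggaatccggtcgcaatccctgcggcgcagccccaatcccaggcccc
Filip1l: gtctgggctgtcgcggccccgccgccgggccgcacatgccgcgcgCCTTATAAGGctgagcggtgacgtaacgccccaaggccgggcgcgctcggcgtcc

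The box lies 161 bases before the start of Myl9, 50 before Myl6, 227 before Vcl and 62 before Filip1l. Outside the index, Myl6, a myosin light chain, had log2 ratios of high-index over low-index cells of 1.16 in Myct1 KO and 1.13 in WT. Vcl, the focal adhesion protein vinculin, had 1.36 and 1.53, and Filip1l, a relative of a filamin-binding protein, 1.08 (-0.15 to 2.38) and 0.65 (0.14 to 1.18). Myl9, a regulatory myosin light chain, is part of the index. Genes without a box in their windows were higher in high-index cells too. Among them were Tpm1 (2.31 in Myct1 KO and 2.07 in WT), Csrp1 and Mylk. Acta2, Tpm2 and Cnn1 of the index also had no box. The boxes thus do not mark the genes with the largest ratios. A match of letters is no evidence of binding, and Tagln, Myh11 and Actg2 had no entry.

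A minority of cells carried proliferation genes, more of them at the contractile end. Of 22 measured, 11 were higher and 0 lower in WT high-index cells (background 3.86% and 4.39%), and 17 were above 0 in both libraries. A sum of the list of at least 20 per 10000 was reached by 7 of 11 high-index and 2 of 12 low-index Myct1 KO cells, and by 15 of 47 and 8 of 47 WT cells. The list summed to 7713 and 1945 CPM in Myct1 KO, where a lone cell supplied 39.9% of the high-index and 59.1% of the low-index UMIs, and to 3903 and 2254 CPM in WT, where a lone cell supplied 15.6% and 22.97%. Outside the cells that reached 20 per 10000 the list stood at 972 CPM in high-index and 1181 CPM in low-index Myct1 KO cells, and at 848 and 845 CPM in WT cells. Cenpa, the centromere histone, was at 310 CPM in high-index and 8.38 CPM in low-index Myct1 KO cells, and at 85.9 and 3.39 CPM in WT cells.

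The immediate early list summed per 10000 to 10.6, 98.5 and 213 in high-index and 99.9, 241 and 421 in low-index Myct1 KO cells (lowest, median, highest), and to 0, 102 and 425 against 10.1, 183 and 481 in WT. Of 20 genes measured in WT, 5 were above 0, with a median log2 ratio of -0.58, and 1 gene was lower by the 2-fold rule, a share near the 4.39% of all genes. Jun, a subunit of the AP-1 factor, had log2 ratios of -0.71 (-1.07 to -0.36) in Myct1 KO and -0.62 (-0.83 to -0.42) in WT. Of 16 fibroblast genes, 10 were lower and 0 higher in WT high-index cells, at a median of -1.46. Few cells carried much of Dcn: single WT low-index cells held 88, 70 and 46 UMIs, and single high-index cells 36 and 26. The cell with 88 had 0 Rgs5 and 0 Notch3 UMIs. The part of such cells in the fibroblast difference was not tested. Lum, the proteoglycan lumican, was at 45.8 CPM in high-index and 190 CPM in low-index WT cells, and had 0 and 3 UMIs in Myct1 KO. Where a gene differed by the 2-fold rule in WT and was measured in both libraries, Myct1 KO had the same sign for 54 of 68 higher genes (79.4%) and 35 of 39 lower genes (89.7%), against 61.2% of all 1522.

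Mural cells were a smaller share of the Myct1 KO library. They were 0.286% of kept cells (exact Clopper-Pearson 0.182 to 0.429) in Myct1 KO and 1.20% (0.972 to 1.47) in WT. Without members that held a keratin UMI the shares were 0.212% and 1.11%, still over all kept cells, keratin positive cells included. Per endothelial cell there were 0.0762 mural cells in Myct1 KO and 0.164 in WT. Against fibroblasts the direction was the opposite, with 23 mural cells to 90 fibroblasts in Myct1 KO and 94 to 2697 in WT. The direction thus depends on the class taken as reference. The endothelial limit removed 6 Myct1 KO and 11 WT candidates, the keratin limit 8 and 3, and a mitochondrial share over 10% a further 4 and 24. Keratin positive cells were 6553 of 8033 kept cells (81.6%) in Myct1 KO and 3609 of 7820 (46.2%) in WT. They stay in the denominator of the shares of kept cells above, and their part in these shares was not tested.

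Between genotypes, more genes were lower than higher in Myct1 KO mural cells. A gene was counted as higher or lower at 2-fold or more with an interval that excludes no difference, among genes with at least 20 UMIs over both sums. Of 5761 genes, 168 were higher (2.92%) and 799 lower (13.9%), and the median log2 ratio was -0.31. Scaling by trimmed means (TMM) raised every log2 ratio by 0.24 and gave 365 higher and 487 lower genes, and scaling by the median of ratios raised them by 0.25 and gave 385 and 480. Without cells that held a keratin UMI, 3.19% of 4854 genes were higher and 8.96% lower, and 46 higher and 301 lower genes were shared with the count over all members. The counts of each list below are to be read against these shares of all genes. Median log2 ratios also followed transcript length, from 0.31 under 1000 bases to -0.77 at 8000 bases or more. The contrast of genotypes was not used by the rule, but cells were kept by the level of 4 genes whose ratios are part of it.

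Of 25 pericyte genes 12 were lower and 0 higher with all members, at a median of -0.92, and 7 were lower and 1 higher without keratin UMIs, at a median of -0.37. The higher one was Art3, an ADP-ribosyltransferase, with 21 UMIs in Myct1 KO and 45 in WT (log2 ratio 1.46). Pdgfrb had 0, 5.45 and 17.5 UMIs per 10000 in Myct1 KO cells and 1.02, 16.6 and 54.3 in WT cells (lowest, median, highest), so the ranges overlap but the Myct1 KO high is near the WT median. Its log2 ratio was -1.67 (-1.98 to -1.38), and -1.31 without keratin UMIs. In endothelial cells the same ratio was -2.00, from low levels, and in keratin positive cells -0.04. Mcam, an adhesion protein of mural cells, had -1.26 with all members and -1.12 without keratin UMIs, and Itga7, a laminin receptor subunit, -1.91 and -1.64.

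Steap4, a metalloreductase, differed most within the pericyte list. It had 2 UMIs in 1 of 23 Myct1 KO cells and 116 in 41 of 94 WT cells, a log2 ratio of -4.24 (-7.30 to -2.35), and -3.21 without keratin UMIs. Thy1, a surface glycoprotein, had -1.31 and -0.98, and Des -1.02 and -0.68, so both lost the call, and Thy1 was reversed relative to keratin positive cells (0.60). The genes of the rule are given only as a description. Rgs5 had -1.21 and -0.65, Notch3 -1.43 and -0.88 and Abcc9 -1.30 and -0.71, each past the 2-fold limit with all members and not without keratin UMIs. Kcnj8 had -0.44 (-0.87 to -0.03) and 0.34 (-0.13 to 0.79), not past it in either.

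Ndufa4l2, Higd1b, Cox4i2 and Ebf1 of the same list differed less between genotypes. Ndufa4l2, a mitochondrial protein of hypoxic and mural cells, had 0.05 (-0.22 to 0.32) with all members and 0.68 (0.37 to 0.99) without keratin UMIs. Higd1b had -0.62 and 0.24, Cox4i2 -0.47 and 0.05, and Ebf1, a transcription factor of mural and other stromal cells, -0.42 and -0.03. None of the 4 was counted as lower or higher, and without keratin UMIs all 4 were above the median of all genes, -0.33. Ebf1 had a median of 8.71 UMIs per 10000 in Myct1 KO cells and 10.6 in WT cells, with highest values of 23.8 and 38.3.

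**Figure D4:**
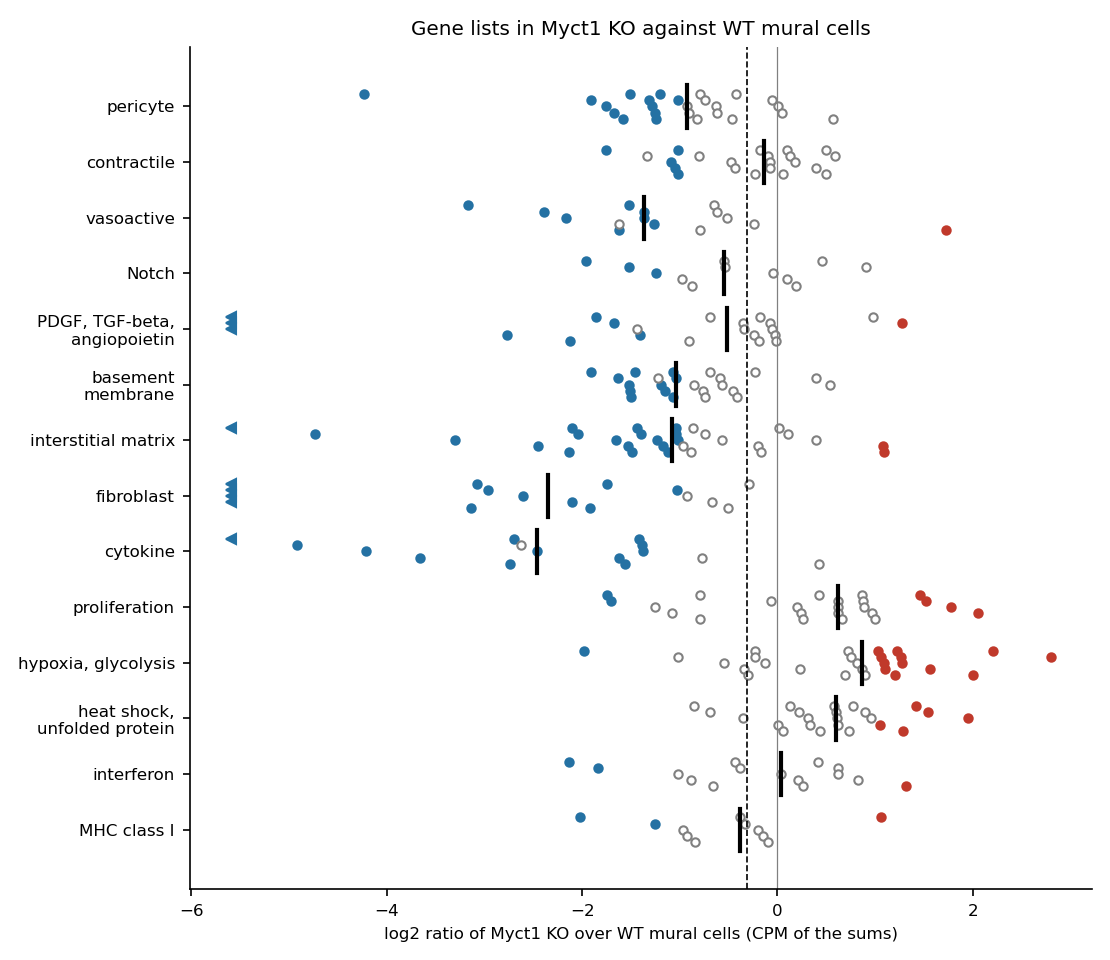
Log2 ratio of Myct1 KO over WT mural cells for each measured gene of 14 lists (blue, lower; red, higher; open, not counted), with the list medians as black bars, 0 UMIs in Myct1 KO as triangles at the left and the median of all genes (-0.31) as the dashed line. The fibroblast and cytokine medians (-2.35 and -2.47) lie farthest left, and the hypoxia median (0.87) farthest right.

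Contractile genes were the list nearest to no difference among the mural lists. With all members 5 of 22 were lower and 0 higher at a median of -0.14, and without keratin UMIs 0 were lower and 0 higher at a median of 0.06. Acta2 had 0 to 176 UMIs per 10000 with a median of 19.2 in Myct1 KO cells, and 0 to 188 with a median of 15.9 in WT cells, so the groups overlap throughout. Its log2 ratio was 0.40 (0.28 to 0.51), and 0.62 without keratin UMIs. Tagln, an actin-binding protein, had 0.49 and 0.68, and Tpm1 0.59 and 0.88. Mylk had -1.05 and -0.58, and Myh11 -1.02 and -0.55, lower only with all members.

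Of 15 measured genes of the vasoactive list, which let mural cells respond to signals that set vessel tone, 8 were lower and 1 higher with all members (median -1.36), and 4 of 13 lower without keratin UMIs (median -0.85). Ednrb was in 10 of 23 Myct1 KO cells at 119 CPM and in 47 of 94 WT cells at 368 CPM, a log2 ratio of -1.62, and -1.28 without keratin UMIs. Agtr1a had -2.17 and -1.44, and Adra2a, an alpha adrenergic receptor, -2.39 and -1.28, from 6 UMIs each in Myct1 KO. Relative to its ratio in keratin positive cells, Agtr1a was reversed (4.16). Olfr558, an odorant receptor expressed in vascular smooth muscle, had 3 UMIs in Myct1 KO and 83 in WT, at -3.17 and -2.16. The cyclase subunits Gucy1a3 (-1.37 and -0.59) and Gucy1b3 (-1.26 and -0.99) and the endothelin receptor Ednra (-1.52 and -0.91) lost the call without keratin UMIs, and Gucy1a3 was reversed relative to keratin positive cells (0.090). Rgs2, the gene counted as higher, had 14 UMIs in 9 Myct1 KO cells and 13 in 9 WT cells.

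In the Notch pathway the ligand Jag1 and the target Heyl were lower, and 3 of 12 genes in all with either set of cells. Of all genes 13.9% were lower with all members and 8.96% without keratin UMIs. The list medians were -0.54 and -0.85, against -0.31 and -0.33 for all genes, and 4 of 12 genes were above 0 in each set. Jag1 was in 8 of 23 Myct1 KO cells at 110 CPM and in 63 of 94 WT cells at 261 CPM, a log2 ratio of -1.25, and -2.54 without keratin UMIs. Heyl, a repressor induced by Notch3, was in 5 Myct1 KO and 48 WT cells, at -1.52 and -3.22. Without keratin UMIs, Jag1 rested on 4 Myct1 KO UMIs (-4.43 to -1.15) and Heyl on 2 (-6.28 to -1.33). Notch1 had -1.96 and -1.44 from 6 UMIs in Myct1 KO. Hes1, another Notch target, was at 554 CPM in Myct1 KO and 571 CPM in WT, a log2 ratio of -0.04 (-0.36 to 0.26), and 0.59 without keratin UMIs.

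Of 22 genes for PDGF, TGF-beta and angiopoietin signalling 8 were lower and 1 higher, and 7 of 19 lower without keratin UMIs. The medians were -0.52 and -0.69, and 13.9% and 8.96% of all genes were lower. Tgfbr2, the type 2 TGF-beta receptor, was at 38.2 CPM in 6 Myct1 KO cells and 166 CPM in 43 WT cells, a log2 ratio of -2.12, and -1.47 without keratin UMIs. Pdgfa, a ligand, was at 267 CPM in Myct1 KO and 281 CPM in WT (-0.07), and Tgfb1 had -0.34 (-0.98 to 0.26), or 0.01 and -0.12 without keratin UMIs. Vegfa was higher with all members (1.28) and not without keratin UMIs (-0.18), with 62% of its Myct1 KO UMIs from a lone cell. Pdgfra, Gas6 and Igf1 had 0 UMIs in Myct1 KO and came from 5, 4 and 4 WT cells. In endothelial cells the ligand gene Pdgfb was at 197 CPM in Myct1 KO and 296 CPM in WT. The ligand genes Dll4 and Angpt2 were at 225 and 294 CPM, and at 298 and 293 CPM.

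Basement membrane genes, which encode the sheet shared by pericyte and endothelium, were lower for 11 of 23 and higher for 0 (median -1.04), and lower for 7 of 22 without keratin UMIs (median -0.69). Col4a2, a type IV collagen chain, had a median of 9.29 and a highest value of 28.7 UMIs per 10000 in Myct1 KO cells, against 25.8 and 75.1 in WT cells. Its log2 ratio was -1.63 (-1.88 to -1.39), and -1.21 without keratin UMIs. Its partner Col4a1 had -1.19 and -0.84, and Nid1, which links collagen IV to laminin, -1.50 and -0.97, or 0.21 relative to keratin positive cells. Timp3, a protease inhibitor bound to matrix, had -1.52 and -1.86. Sparc, a collagen-binding protein, was found in all 23 Myct1 KO and 94 WT cells, at -0.69 and -0.34, and was not counted.

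Interstitial matrix genes were lower for 18 of 30 (median -1.08) and higher for 2, and lower for 12 and higher for 2 without keratin UMIs (median -0.73). Col3a1, a fibrillar collagen, was at 883 CPM in Myct1 KO and 3643 CPM in WT, a log2 ratio of -2.04, and -1.43 without keratin UMIs. In endothelial cells, which make little of it, Col3a1 stood at 37.6 CPM in Myct1 KO and 1124 CPM in WT (-4.90). Col1a2 had -2.14 and -1.32 in mural cells, with 10.1 CPM in Myct1 KO and 779 CPM in WT endothelial cells, and was reversed relative to keratin positive cells (0.37). The part of these endothelial levels in the mural difference was not tested. Loxl1 and Lox, which crosslink elastin and collagen, had 1 and 0 UMIs in Myct1 KO, and 82 in 38 and 81 in 13 WT cells. Lox was at least 8.78-fold lower in Myct1 KO, against 3 counts per library. Mmp2, a gelatinase, had 5 and 152 UMIs (-3.30, and -4.39 without keratin UMIs), and Cyr61, a matricellular growth regulator, 14 and 235 (-2.45, and -2.58 without keratin UMIs).

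Timp1, a metalloprotease inhibitor, was higher within the same list. It had a median of 5.74 and a highest value of 58.4 UMIs per 10000 in Myct1 KO cells, with a UMI in 22 of 23, against 1.95 and 19.8 in WT cells, with a UMI in 60 of 94. The log2 ratio was 1.08 (0.79 to 1.37), and 1.20 without keratin UMIs. In keratin positive cells Timp1 stood at 1051 CPM in Myct1 KO and 760 CPM in WT.

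Fibroblast genes (12 of 16 lower, 0 higher) and cytokine genes (12 of 15 lower, 0 higher) had the lowest medians, -2.35 and -2.47. With genes at 0 UMIs set to 3 counts the fibroblast median was -2.13, and without keratin UMIs the medians were -1.86 and -0.59. Pi16, a marker of adventitial fibroblasts, had 0 UMIs in Myct1 KO and 86 in 16 WT cells, at least 9.32-fold lower in Myct1 KO, with 55% from a lone cell. Cxcl12, a chemokine of perivascular cells, had 3 UMIs in 2 Myct1 KO cells and 117 in 14 WT cells (-3.66, and -2.99 without keratin UMIs). Mmp13, Mmp10 and Ccl5 had 0 UMIs in Myct1 KO and came from 3, 2 and 1 WT cells.

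Among immediate early genes Ier3, induced by growth factors and stress, was higher. It was in 19 of 23 Myct1 KO cells with a median of 4.89 and a highest value of 70.2 per 10000, and in 38 of 94 WT cells with a median of 0 and a highest value of 18.8. The log2 ratio was 3.03 (2.65 to 3.42), and 3.72 without keratin UMIs. Ier3 was also higher in Myct1 KO in endothelial cells (949 CPM against 380 CPM in WT) and in keratin positive cells (786 CPM against 299 CPM in WT). Of 22 genes of that list 2 were higher and 5 lower, and 3 (Ier3, Atf3 and Socs3) and 1 of 20 without keratin UMIs. For all genes the shares were 2.92% higher and 13.9% lower, and 3.19% and 8.96% without keratin UMIs. Nr4a1, a nuclear receptor of the same response, had -1.27 and -1.08.

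Interferon genes depended on the cells included. With all members 1 of 15 was higher and 2 lower (median 0.04), and without keratin UMIs 5 of 11 were higher and 0 lower (median 1.17), namely Isg15, Bst2, Oasl2, Iigp1 and the chemokine Cxcl10. Cxcl10 had 28 UMIs in Myct1 KO and 136 in WT with all members (log2 ratio -0.66) but 28 and 2 without keratin UMIs (6.37), since 133 WT UMIs came from a lone cell. Isg15, a ubiquitin-like protein induced by interferon, was in 10 of 23 Myct1 KO cells and 11 of 94 WT cells, at 181 and 72.9 CPM, log2 ratios of 1.31 and 2.72, with 34% of Myct1 KO and 43% of WT UMIs from a lone cell. Without members that held fibroblast UMIs at 10 or more per 10000 the Isg15 ratio was -0.34. It was 1.69 in endothelial and 1.93 in keratin positive cells. Psmb8, an immunoproteasome subunit, had 1.06 in mural cells, 1.74 without keratin UMIs, 1.28 in endothelial and 1.66 in keratin positive cells. Relative to keratin positive cells both were reversed, Isg15 at -0.62 and Psmb8 at -0.60.

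Hypoxia and glycolysis genes were higher for 12 of 27 and lower for 1 (median 0.87), and for 3 and 2 of 23 without keratin UMIs (median 0.25). Heat shock genes were higher for 5 of 23 (median 0.60), and 3 of 22 without keratin UMIs (median 0.25), namely Hspa1a, Hspb1 and Hsph1. Hspb1, a small chaperone that binds actin, had 1.55 and 1.13, and Hsph1, a chaperone of the HSP110 family, 1.95 and 1.36. Proliferation genes were higher for 4 and lower for 2 of 24 (median 0.62), and for 6 and 1 of 22 without keratin UMIs. Ube2c, a mitotic ubiquitin-conjugating enzyme, came from 4 of 23 Myct1 KO cells and 10 of 94 WT cells (log2 ratio 2.05), with 46% of Myct1 KO and 43% of WT UMIs from a lone cell. The genes with the largest ratios, such as Areg, an EGF receptor ligand (62 UMIs in 5 Myct1 KO cells, 2 in WT), rested on few cells.

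**Figure D5:**
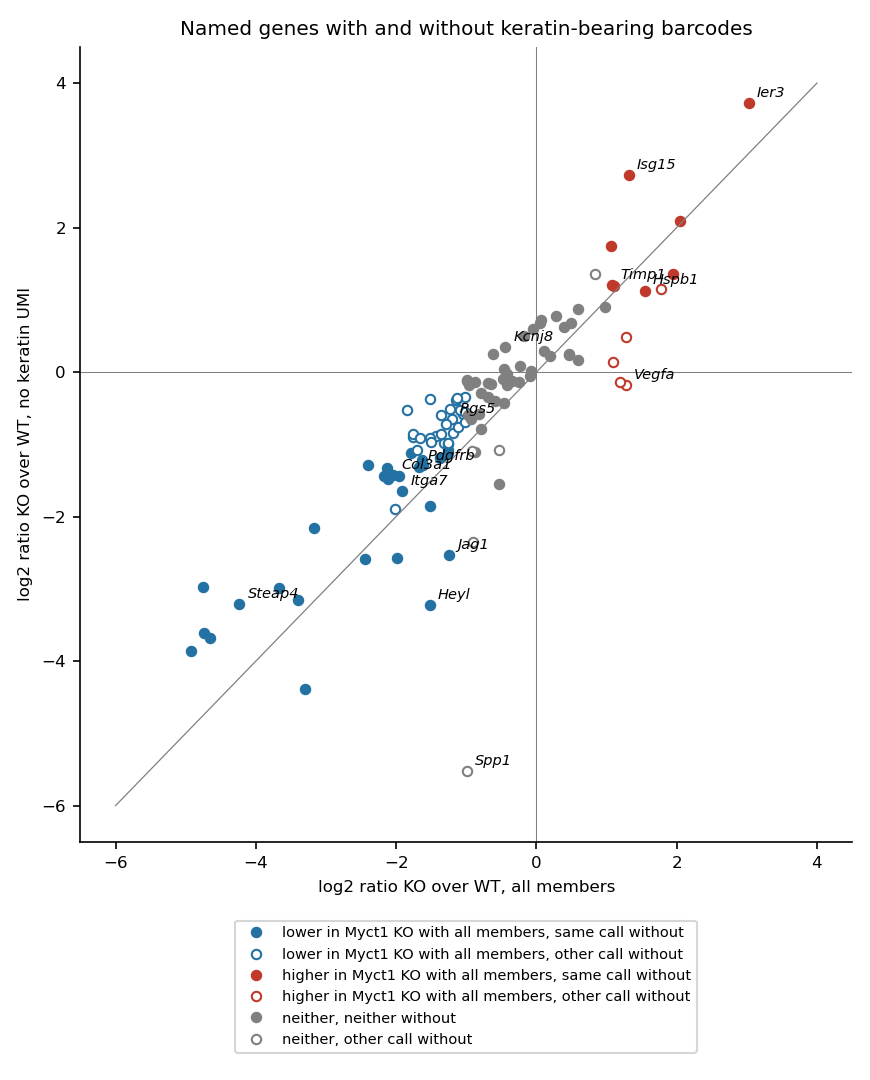
Log2 ratio of Myct1 KO over WT for 114 named genes with all members (horizontal) and without cells that held a keratin UMI (vertical), with the line of equal values; filled points keep their call and open points change it. Of 84 genes counted as lower or higher with all members, 50 kept the call, 42 of 71 lower and 8 of 13 higher, among them Pdgfrb, Steap4, Jag1 and Ier3. These counts include genes at 0 UMIs in Myct1 KO, such as Pdgfra, Lox and Pi16, which have no finite ratio and are not drawn.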

How the data were processed

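For each library the authors deposited UMI counts as a matrix of genes by barcodes, made with Cell Ranger 2.1.1 on mm10 per the submitters' processing notes. No source used here gives the annotation release or how barcodes were called. The tables hold 9664 (Myct1 KO) and 10505 (WT) genes, and every listed gene reaches at least 4 UMIs in some barcode, so an unlisted gene had at most 3 in each. Gene symbols shared by both tables numbered 9127.

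UMIs were summed over the mural cells of each library and given as CPM with exact Poisson intervals. Log2 ratios carry exact conditional binomial intervals and shares exact Clopper-Pearson intervals, at 95%. Doublets were scored with Scrublet in scanpy 1.11.5 and not removed: 23 kept Myct1 KO cells (0.286%, too few for the caller to have worked) and 132 WT cells (1.69%) scored over 0.3. TMM factors came from edgeR 4.0.16. The count rule was tested on simulated data, which cannot stand in for replicate libraries and is not used as support for any result here.

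Members, lists and thresholds were chosen with earlier results of these data known. Named genes were those of the rule, Myct1, the 8 highest and up to 4 most different of each mural list, up to 4 of other lists, the 12 most different in each direction (without predicted genes) and the 15 most mural in WT. Those named along the contractile axis, with promoters, as endothelial ligands or to spell out small counts were chosen after their values were seen. Alternatives changed the cell limits, the scaling and the count minimum.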

Additional observations from a re-analysis of the deposited data

Results flagged for a closer look

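Genes listed in the WT table but not in the Myct1 KO table, with at least 50 UMIs in WT mural cells, were looked at because they lie outside the comparison of genotypes. There were 20. Trpc6, a calcium-permeable channel of smooth muscle, had 85 UMIs in 51 of 94 WT mural cells, and Cacna1c, the pore of the L-type calcium channel, had 53 UMIs. Synpo2, an actin-bundling protein, had 95 UMIs, Tbx18, a transcription factor of mural precursors, 66, Tusc5 70, Rasl12 66, Dmd, which encodes dystrophin, 51, and Mical1, an actin-oxidising enzyme, 82. Signalling genes included Gab1 with 77 UMIs, Adcy3 with 57, Pik3cd with 56 and Mark1 with 59. Nr1h3, a sterol-sensing nuclear receptor, had 73 UMIs, Gpcpd1 72, Ndrg2 67, Slc16a12 66, Hrct1 57, Naalad2 55, Susd2 52 and 2510009E07Rik 52. At the WT level the Myct1 KO mural cells would hold 27.6 UMIs of Trpc6. The Myct1 KO table lists no gene under 4 UMIs in every barcode, and at the WT frequency 0.489 of 23 mural cells would reach 4 for Trpc6 and 1.22 for Synpo2, so an unlisted gene gives no difference here.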

How the results depend on the processing

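Of 1387 recomputed ratios of 100 named genes under 17 alternatives, 1139 kept direction and call, 225 kept direction only and 23 reversed. Requiring a mural sum of at least 20 gave 454 lower genes, a pericyte median of -0.39, and reversed Vegfa (-2.31), Lgals7 (-1.91), Ero1l (-1.31), Klf4 (-0.34), Sox9 (-2.15) and Tnnt2 (-0.77). Leaving out cells with a keratin UMI gave 435 lower genes, a pericyte median of -0.37, and reversed Vegfa (-0.18) and Klf4 (-0.14). An endothelial limit of 5 gave a WT share of 0.729%. TMM scaling gave 365 higher and 487 lower genes, the median of ratios 385 and 480, equal weight per cell 289 higher, and a minimum of 50 UMIs, with 2789 genes tested, 87 higher and 464 lower. Ratios relative to those in keratin positive cells gave 415 lower genes and reversed Thy1 (0.60), Gucy1a3 (0.090), Agtr1a (4.16), Nid1 (0.21), Postn (0.68), Col1a1 (0.63), Col1a2 (0.37), Isg15 (-0.62), Psmb8 (-0.60), Meg3 (0.22) and Egflam (0.25). A mitochondrial limit of 5% reversed Vegfa (-0.49) and Nupr1 (-0.0062), a fibroblast limit of 10 reversed Isg15 (-0.34), and leaving out barcodes over 20000 UMIs, chosen after seeing the data, reversed Ero1l (-0.18). Where the setting's own construction does not show it, the cause was not tested. The contractile median ranged from -0.50 to 0.20. No paired analysis was possible because each genotype had 1 library. With 23 Myct1 KO cells, genes of few UMIs are limited by counting error.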
